A study of Saccharomyces cerevisiae with 16 samples.

Results

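Ribosome biogenesis factors of Saccharomyces cerevisiae, 60 listed genes, were followed on the 16 two-colour arrays of a benomyl time course. They were chosen by name: a probe belonged to the set if its platform symbol or its current symbol was one of the 60 listed. All 60 were found, each by its current symbol and with 1 probe, among 6321 features (a feature is 1 gene, or 1 unnamed probe). By the subunit that each protein helps to build, 22 were placed with the small subunit, 28 with the large subunit, 5 with the core proteins of the small nucleolar ribonucleoproteins (snoRNPs) and 5 with steps shared by both subunits.

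The arrays compared a strain with benomyl, a drug that acts on microtubules, with the same strain without it. The strains were DeltaYAP1, deleted for the stress-response activator gene YAP1, DeltaPDR1, deleted for the drug-resistance activator gene PDR1, and the wild type (WT), and each was measured at 30 s and at 2, 4, 10 and 20 min, WT also at 40 min. Each strain and time had 1 array of total RNA. The labels give neither the strain background, the drug concentration, the way the deletions were made nor when the untreated cells were taken. The values are the submitters' log ratios, taken as log2, so that -1 stands for a transcript 2-fold below its untreated level, relative to the array average. The base is not stated, and with natural logarithms each fold would be larger. The ratio was read as drug over untreated because the labels name the treated cells as channel 1. A transcript that benomyl is known to induce through Yap1 points the same way, so this direction is likely but not stated. That gene, FLR1, which encodes a drug exporter, stood at -0.20 in the YAP1 deletion, 6.15 in the PDR1 deletion and 5.12 in WT at 20 min.

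A eukaryotic ribosome is assembled in the nucleolus from a long precursor ribosomal RNA that RNA polymerase I makes. Factors bind this precursor, snoRNPs guide its chemical modification, helicases, GTPases and nucleases reshape and cut it, and the 2 precursor subunits then leave for the cytoplasm along separate routes. In budding yeast the genes for these factors are known as a regulon that is transcribed in concert when cells grow fast and is turned down in concert when growth slows or the cells meet stress.

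The arrays held between 3441 and 6112 features with a value, fewest in the PDR1 deletion at 2 min. Values on the DeltaPDR1 arrays were coarser, with 164 to 326 distinct values per array, against 865 to 2019 on the other arrays. Each array was centred near 0, which hides any change common to the whole transcriptome. On 3 arrays (DeltaYAP1 at 30 s and 4 min, WT at 4 min) probes next to each other in the list, which follows chromosome order, correlated at 0.36 to 0.46. The correlation was 0.25 in the YAP1 deletion and in the PDR1 deletion at 2 min and 0.17 or less on the other 11. The probe of YAP1 read between -0.06 and 0.29 in the YAP1 deletion, which does not check the deletion, because both channels held the same strain. Of the 60 factors, 35 had a value on all 16 arrays. A further 7 (NSR1, NOP2, NOP7, DBP3, GAR1, RRP5 and DBP2) had none on any DeltaPDR1 array, as had 587 features in all. CBF5, the pseudouridine synthase of the box H/ACA snoRNPs, had 1 value only, -0.19 in the PDR1 deletion at 20 min, and is not described further. Where values of a gene are listed below they run in order of time, from 30 s.

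As a group the factors had their lowest levels late in the WT time course, stood less far below 0 in the YAP1 deletion, and stayed near 0 in the PDR1 deletion. Their median log2 ratios from 30 s to 20 min were 0.04, -0.02, -0.03, -0.10 and -0.25 in the YAP1 deletion. In the PDR1 deletion the medians at the same times were -0.04, -0.08, 0.00, -0.02 and 0.04. In WT they were -0.05, -0.04, -0.06, -0.17 and -0.37, and at 40 min -0.76. The median of all features stayed within 0.05 of 0 on every array. At 20 min the share of factors below 0 was 84.7% in the YAP1 deletion (50 of 59), 49.1% in the PDR1 deletion (26 of 53) and 86.4% in WT (51 of 59), against 46.5%, 51.2% and 54% of all features on the same arrays. The RNA came from whole cultures, so fewer cells holding a transcript and less of it per cell cannot be told apart.

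**Figure D1:**
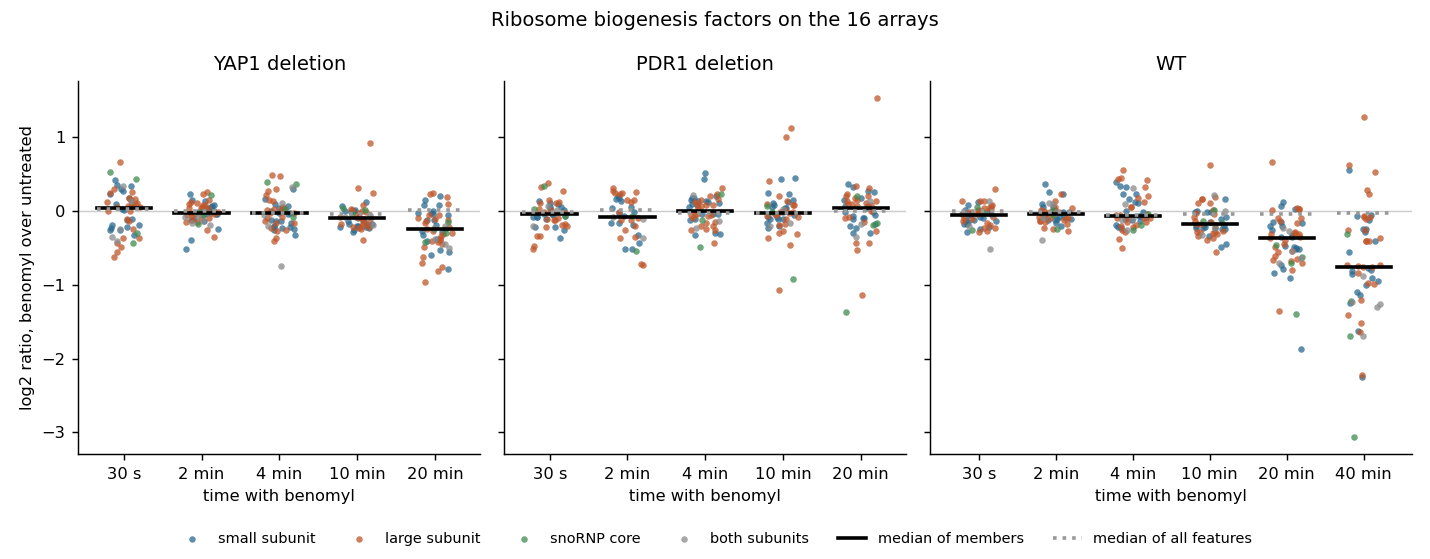
Log2 ratio (benomyl over untreated, vertical axis) of every factor with a value on each of the 16 arrays, by time with benomyl and in 3 panels for the YAP1 deletion, the PDR1 deletion and WT. Points are genes coloured by subunit, black lines are the medians of the factors and dotted lines those of all features; the WT median reaches -0.37 at 20 min and -0.76 at 40 min, while that of the PDR1 deletion stays between -0.08 and 0.04.

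The deepest levels were on the WT array at 40 min, the only array of that time, which therefore carries no test. Of the 58 factors measured there, 52 (89.7%) lay below 0, against 51.8% of all features. Of the 58, 18 (31%) were at least 2-fold lower than in untreated cells, where 3.43% of all features were, and 1 was at least 2-fold higher, where 4.09% of all features were. The 18 ended with ENP1 at -1.004, while NOP4 at -0.995 and NSA2 at -0.973 were just short of 2-fold. At 20 min in WT 3 of 59 factors (NSR1, NOP58 and NOG2) were at least 2-fold lower, where 1.73% of all features were, and 0 were as much higher, where 2.72% were.

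**Figure D2:**
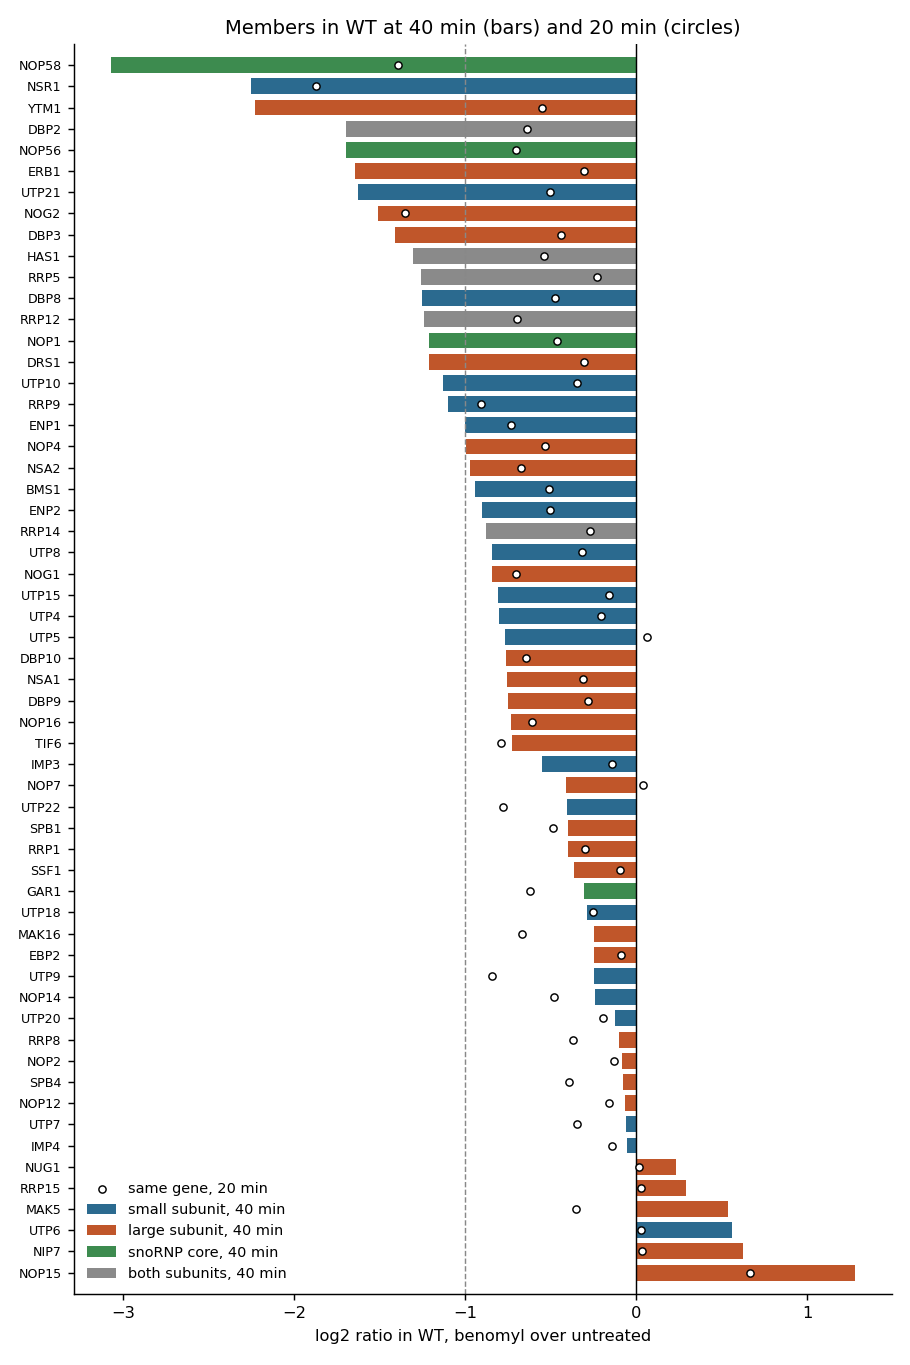
The 58 factors with a value in WT at 40 min, in order of their log2 ratio (bars, coloured by subunit), with the same gene at 20 min as a circle; the dashed line marks 2-fold lower. NOP58 has the lowest bar, at -3.07, NOP15 the highest, at 1.28, and several genes near the bottom of the list have a circle to the left of their bar.

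The 3 listed core proteins of the box C/D snoRNPs, which guide 2'-O-methylation of ribosomal RNA, were all at least 2-fold lower in WT at 40 min. SNU13, another core protein of these particles counted with the other small subunit genes, stood at -0.27. NOP58, a scaffold protein of these particles, had the lowest level of all factors. It read 0.53, 0.21, 0.36 and -0.41 (not measured at 10 min) in the YAP1 deletion, 0.34, 0.24, 0.07 and 0.21 (not measured at 2 min) in the PDR1 deletion, and -1.39 and -3.07 (measured only at 20 and 40 min) in WT. Both WT values lay below every value of the deletion strains, and the WT 40 min value equals a level 8.39-fold below untreated. NOP56, the partner scaffold, stood at -1.69 and NOP1, the methyltransferase known as fibrillarin in animals, at -1.21. GAR1, a core protein of the box H/ACA snoRNPs and the only listed one measured there, behaved otherwise. It read 0.44, -0.18, 0.40, 0.04 and -0.15 in the YAP1 deletion and -0.26, -0.25, -0.03, -0.16, -0.62 and -0.30 in WT. Its lowest WT value came at 20 min, and its 40 min value was close to that at 30 s. NHP2 and NOP10, unlisted core proteins of the box H/ACA snoRNPs, stood at -1.06 and -0.89 in WT at 40 min. GAR1 therefore does not stand for the box H/ACA proteins as a group.

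Among the small subunit factors the median in WT was -0.35 at 20 min and -0.81 at 40 min, and 6 of 21 were at least 2-fold lower at 40 min. NSR1, a nucleolar RNA-binding protein related to nucleolin of animals, was the lowest. It read 0.42, -0.10, 0.30, -0.17 and -0.79 in the YAP1 deletion and -0.28, -0.08, 0.32, -0.20, -1.87 and -2.25 in WT. Its WT value at 20 min was the lowest of all factors on that array, and in the YAP1 deletion 20 min was also its lowest time. The other 5 were UTP21 at -1.63, the helicase gene DBP8 at -1.25, UTP10 at -1.13, the U3 snoRNP protein RRP9 at -1.10 and the export factor ENP1 at -1.004.

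The listed genes of subcomplexes of the small subunit processome, the particle that cuts out the small subunit RNA, differed from one another. In UTP-A, which binds the 5' end of the precursor, UTP10, UTP8 (-0.85), UTP15 (-0.81), UTP4 (-0.80), UTP5 (-0.77) and UTP9 (-0.25) were all below 0 at 40 min. Their median was -0.81. NAN1, a UTP-A gene counted with the other small subunit genes, was nearer to 0, at -0.13. UTP-B, which binds next to UTP-A, was spread widely, with UTP21 at -1.63, UTP18 at -0.29 and UTP6 at 0.56. Its other listed member UTP13 had no value at 40 min and stood at 0.12 at 20 min. Of the UTP-B genes counted with the other small subunit genes, PWP2 stood at -0.22 at 40 min. DIP2 had no value at 40 min and stood at 0.09 at 20 min. UTP6 was the highest listed small subunit factor in WT at 40 min. It read 0.03, -0.12, 0.04, 0.06 and 0.20 in the YAP1 deletion, 0.02, 0.16, -0.10, 0.24 and -0.23 in the PDR1 deletion and 0.08, -0.12, -0.19, -0.24, 0.03 and 0.56 in WT, so the WT 40 min value stood above all its others. IMP3 and IMP4, which join the U3 snoRNA to the precursor, were at -0.55 and -0.05. The GTPase gene BMS1 was at -0.94, ENP2 at -0.90, UTP22 at -0.41, NOP14 at -0.24, UTP20 at -0.12 and UTP7 at -0.06.

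The large subunit factors had a median of -0.33 at 20 min and -0.40 at 40 min in WT, and 5 of 28 were at least 2-fold lower at 40 min. A pair of them belongs to the Nop7 complex (PeBoW in mammals), which acts in the processing of the precursor of the 5.8S and 25S RNAs. YTM1 read -0.37, -0.10, 0.03, -0.12 and -0.76 in the YAP1 deletion, 0.10, -0.07, -0.37 and -0.43 (not measured at 2 min) in the PDR1 deletion and 0.13, -0.10, -0.09, 0.20, -0.55 and -2.23 in WT. ERB1 read -0.13, 0.09, 0.00, -0.02 and -0.42 in the YAP1 deletion, -0.51, -0.35, -0.26, -0.08 and 0.11 in the PDR1 deletion and -0.27, -0.10, -0.50, -0.30 and -1.64 (not measured at 10 min) in WT. For both genes the WT 40 min value lay far below every other value, and their 20 min values in WT were not lower than in the YAP1 deletion. NOP7, the third protein of the complex, was at -0.41 at 40 min and 0.04 at 20 min. The other 3 were the GTPase gene NOG2 and the helicase genes DBP3 (-1.41) and DRS1 (-1.21).

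Just above these came the RNA-binding protein NOP4, then NSA2, the GTPase gene NOG1 (-0.84), DBP10 (-0.76), NSA1 (-0.76), DBP9 (-0.75), NOP16 (-0.73) and TIF6 (-0.72), whose protein keeps the large subunit from joining the small one too soon. RRP1 (-0.40), SPB1 (-0.40), SSF1 (-0.36), EBP2 (-0.25), MAK16 (-0.25), RRP8 (-0.10), NOP2 (-0.09), SPB4 (-0.08) and NOP12 (-0.06) were nearer to 0. NUG1 (0.23), RRP15 (0.29), MAK5 (0.54), NIP7 (0.62) and NOP15 lay above 0. NOP15, an RNA-binding protein of spacer removal, was the highest factor. It read -0.96 (measured only at 20 min) in the YAP1 deletion, 0.16, -0.12, -0.04, 1.12 and 1.54 in the PDR1 deletion and 0.66 and 1.28 (measured only at 20 and 40 min) in WT. Late in the course NOP15 was thus well above 0 in WT and in the PDR1 deletion and well below 0 on the only YAP1 deletion array that measured it, and it had too few values for a test.

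The 5 factors that serve both subunits were all below 0 in WT at 20 and 40 min. The lowest was DBP2, a helicase gene, which read -0.40, -0.06, -0.20 and -0.38 (not measured at 10 min) in the YAP1 deletion and -0.51, 0.10, -0.25, -0.64 and -1.70 (not measured at 10 min) in WT. HAS1, also a helicase gene, was at -1.30, RRP5, needed for the cuts that release both subunits, at -1.26 and RRP12, an export factor, at -1.24. The highest was RRP14, which read -0.35, -0.17, -0.05, -0.18 and -0.20 in the YAP1 deletion, -0.20, -0.36, -0.23, 0.02 and -0.34 in the PDR1 deletion and 0.14, 0.10, -0.10, 0.22, -0.27 and -0.88 in WT. For DBP2 and RRP14 alike the WT 40 min value was the lowest of all their arrays.

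By enzyme type, the 9 DEAD-box helicase genes were between -1.70 (DBP2) and 0.54 (MAK5) in WT at 40 min, with a median of -1.21 and 5 at least 2-fold lower. The 4 GTPase genes (NOG2, BMS1, NOG1 and NUG1) had a median of -0.89 and 1 at least 2-fold lower. The 4 methyltransferase genes (NOP1, SPB1, RRP8 and NOP2) had a median of -0.25, again with 1 at least 2-fold lower.

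Small subunit factors stood lower than large subunit factors in WT at 40 min, by -0.40 between the class medians (-0.81 against -0.40), while at 20 min the medians were -0.35 and -0.33. This order did not hold for the other genes of the pathway. Among 48 other small subunit factors the 40 min median was -0.55, with 7 at least 2-fold lower, and among 45 other large subunit factors it was -0.84, with 17 at least 2-fold lower. Several of these low genes had no WT value before 20 min. They were UTP23, UTP25, RRP36, NOC4 and KRE33 of the small subunit and NMD3, RPF2, BRX1, MRT4 and IPI3 of the large. The same held for DBP8 and RRP9 among the listed small subunit factors. The gap within the listed factors also shrank to -0.12 when the 30 s array was subtracted and to -0.20 when arrays were scaled to a common spread. Scaling divides the widest arrays most, and under it 3 listed factors were at least 2-fold lower at 40 min.

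The wider pathway was also low in WT at 40 min, the genes of RNA polymerase I included. In the large subunit list the lowest were NOC3 (-2.21), CGR1 (-1.65) and NOC2 (-1.56) and the highest was JIP5 (0.33). In the small subunit list they were UTP14 (-1.93), UTP23 (-1.75) and RRP36 (-1.40), with the helicase gene ROK1 (0.32) highest. The 5 other genes counted with the snoRNPs had a median of -0.89, from NHP2 (-1.06), NOP10 (-0.89) and NAF1 (-0.89) to SHQ1 (-0.21). They include NOP19 (-0.47), whose protein belongs to the small subunit processome. The 17 measured genes of RNA polymerase I and its initiation factors had a median of -0.69, with the 2 largest subunits RPA190 (-1.87) and RPA135 (-1.20) lowest, then RPC19 (-1.18), and RRN10 (0.72) highest.

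Genes for known regulators of ribosome production and for the ribosomal proteins had medians nearer to 0 than the listed factors as a whole (-0.76), though the cytosolic ribosomal protein genes lay below the listed large subunit factors. The 11 regulator genes had a median of -0.31, from the kinase gene SCH9 (-0.71), RAP1 (-0.67) and the repressor gene TOD6 (-0.58) to the corepressor gene CRF1 (0.85), with 0 at least 2-fold lower. The 134 cytosolic ribosomal protein genes had a median of -0.56 with 97% of them below 0 and 5 at least 2-fold lower, and the 55 mitochondrial ribosomal protein genes one of 0.03 with 0 at least 2-fold lower.

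The factors did not all follow one course between 20 and 40 min in WT. Of 58 with both values, 38 (65.5%) were lower at 40 min than at 20 min, against 50.5% of all features. A gap of more than 0.3 was seen downward in 28 (48.3%, against 20.1% of all features) and upward in 9 (15.5%, against 19.2%). YTM1, ERB1, UTP21, RRP5 and UTP5 were among those much lower at 40 min; RRP5 stood at -0.23 at 20 min and -1.26 at 40 min, and UTP5 at 0.06 and -0.77. UTP9, UTP22, MAK16 and GAR1 were instead further below 0 at 20 min than at 40 min. MAK5 stood at -0.35 at 20 min and 0.54 at 40 min. Across the 58 genes the 2 arrays correlated at 0.68 (Pearson) and 0.55 (Spearman), against 0.70 and 0.64 across all features. This describes genes, which are no replicates, on 2 arrays of 1 strain.

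Tests used the times that the strains share after 30 s as repeats. limma was fitted to the 12 arrays at 2, 4, 10 and 20 min, with terms for strain and for time, on the 4324 features with at least 3 of 4 values in each strain. This kept 46 of the 60 factors, and p was adjusted over all 4324 features by Benjamini-Hochberg, with calls under 0.05. Arrays of different times are not replicates of a condition, so p measures an effect against the spread left by the model. In a second model the values at 10 and 20 min were taken apart from those at 2 and 4 min. In what follows "fell" and "rose" mean a log2 ratio called below or above 0, with the standard error (SE) of limma.

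At 10 and 20 min 9 of the 46 factors fell in WT and 0 rose, where 4.58% of all features were called down and 4.49% up. The median over the 46 was -0.27, against -0.04 over all features, and 21 had an unadjusted p under 0.05. NOG2, the GTPase that checks large subunit particles before export, fell furthest, by 0.95 ± 0.15 (SE; adjusted p = 0.00317). It read -0.36, -0.04, -0.36, -0.39 and -0.31 in the YAP1 deletion, -0.12, 0.15, -0.06, -0.27 and -0.08 in the PDR1 deletion and -0.04, -0.04, -0.09, -0.55, -1.35 and -1.51 in WT. WT at 10, 20 and 40 min lay below every array of both deletions. NSA2, a factor of late nuclear large subunit particles, fell by 0.49 ± 0.12 (adjusted p = 0.0289). It read 0.00, -0.04, -0.13, -0.16 and -0.40 in the YAP1 deletion, 0.01, -0.12, -0.24, -0.18 and 0.07 in the PDR1 deletion and -0.10, -0.25, -0.38, -0.30, -0.67 and -0.97 in WT, where all 6 values were below 0.

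Another 3 large subunit factors fell late in WT. MAK16, which acts on early large subunit particles, fell by 0.43 ± 0.11 (adjusted p = 0.0409). It read 0.18, 0.23, 0.00, -0.22 and -0.29 in the YAP1 deletion, 0.38, 0.32, 0.10, 0.09 and 0.17 in the PDR1 deletion and 0.00, 0.00, -0.14, -0.19, -0.67 and -0.25 in WT. Every DeltaPDR1 value of MAK16 was above 0, and its YAP1 deletion values at 10 and 20 min were below 0. SPB1, a methyltransferase of the 25S RNA, fell by 0.40 ± 0.11 (adjusted p = 0.0406). It read 0.00, 0.12, -0.16, -0.20 and -0.14 in the YAP1 deletion, -0.11, 0.26, 0.23, 0.14 and -0.09 in the PDR1 deletion and -0.04, 0.02, -0.09, -0.31, -0.49 and -0.40 in WT. RRP8, another methyltransferase of that RNA, fell by 0.38 ± 0.096 (adjusted p = 0.035). It read 0.07, 0.04, -0.03, -0.11 and -0.06 in the YAP1 deletion, 0.33, 0.25, 0.21, 0.10 and 0.15 in the PDR1 deletion and 0.04, -0.09, -0.10, -0.38, -0.37 and -0.10 in WT. For RRP8 the values at 10 and 20 min did not overlap between the strains, with WT lowest, the YAP1 deletion between and the PDR1 deletion above 0.

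A pair of small subunit factors fell as well. UTP9 of the UTP-A complex fell by 0.65 ± 0.16 (adjusted p = 0.0295). It read -0.10, 0.02, -0.24, -0.13 and -0.53 in the YAP1 deletion, -0.16, 0.52, 0.12 and 0.33 (not measured at 30 s) in the PDR1 deletion and -0.22, -0.08, 0.23, -0.45, -0.84 and -0.25 in WT. UTP22, of the UTP-C complex, fell by 0.56 ± 0.13 (adjusted p = 0.0258). It read 0.09, 0.04, -0.22, 0.12 and -0.40 in the YAP1 deletion, -0.06, 0.04, 0.14, -0.10 and 0.04 in the PDR1 deletion and -0.05, -0.16, -0.07, -0.33, -0.78 and -0.41 in WT. In both genes 20 min held the lowest WT value, and the 2 YAP1 deletion values of 10 and 20 min were higher than the WT values of the same times.

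RRP12, the export factor, fell by 0.47 ± 0.12 (adjusted p = 0.0409) and NOP56 by 0.42 ± 0.10 (adjusted p = 0.0295). RRP12 read 0.34, -0.14, 0.32, -0.07 and -0.44 in the YAP1 deletion, 0.01, -0.08, -0.14, -0.20 and -0.18 in the PDR1 deletion and -0.04, -0.01, 0.10, -0.23, -0.70 and -1.24 in WT, where the decline ran on to 40 min. By class, 5 of 22 large subunit, 2 of 19 small subunit, 1 of 2 snoRNP and 1 of 3 shared factors tested were called. The count rests on the WT 20 min array, without which 0 were called (0.492% of all features down). It was 2 to 5 without any 1 of the WT or YAP1 deletion arrays at 2, 4 or 10 min. In those fits 2.24% to 3.4% of all features were called down. Without the YAP1 deletion at 20 min it was 6, against 3.42% of all features. Without any 1 PDR1 deletion array it was 11 to 13, against 4.8% to 7.63%, and the 13 were of 39 tested. With arrays scaled to a common spread it was 1, against 0.994%. A fit of the WT arrays alone called 1 of 53 (NOG2), against 1.03%. Without the DeltaPDR1 arrays 15 of 53 were called, where 6.76% of all features were called down.

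Over all 4 times 2 of the 46 factors fell in WT, NOG2 by 0.51 ± 0.13 (adjusted p = 0.04997) and NSA2 by 0.40 ± 0.086 (adjusted p = 0.0224), and 0 rose, where 1.55% of all features were called down and 2.61% up. The median was -0.13, against -0.04 over all features. The count of falls was 0 without the WT array at 2, 10 or 20 min, where at most 0.415% of all features were called down. It was 1 without WT at 4 min (0.661% of all features) or without any 1 of 6 deletion arrays from 2 to 10 min (0.94% to 1.66%). It was 2 without the YAP1 deletion at 20 min (1.38%) and 3 without the PDR1 deletion at 20 min (2.49%). In addition, 1 factor was called up without WT at 10 min (1.14% of all features up). The same count was found without the 20 min array of the YAP1 deletion (2.79%) or of the PDR1 deletion (3.45%).

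**Figure D3:**
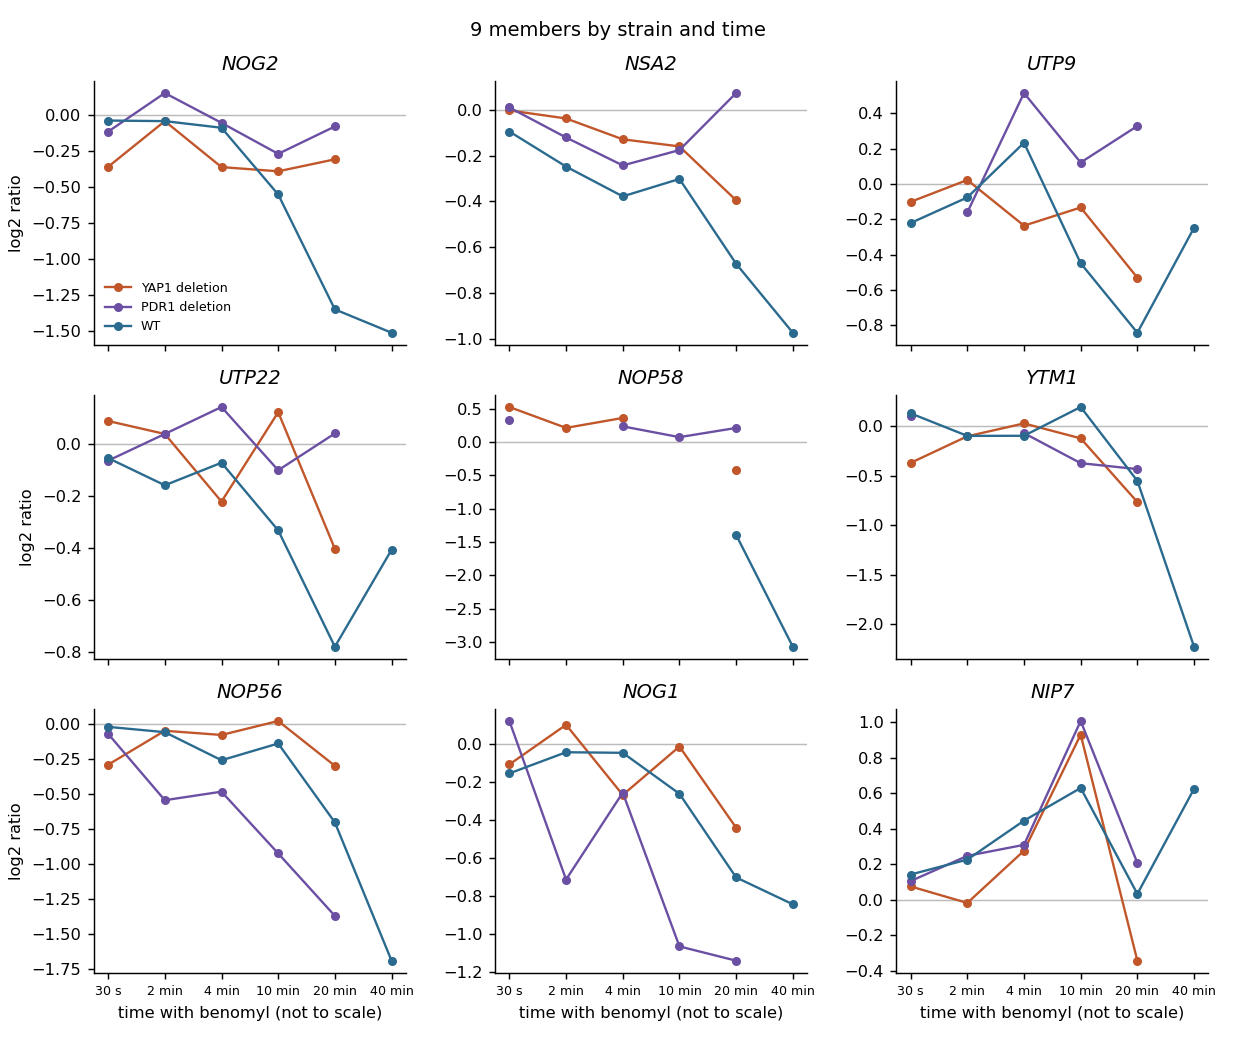
Log2 ratio (benomyl over untreated) by time of 9 factors, with 1 line each for the YAP1 deletion, the PDR1 deletion and WT, each point 1 array; the time axis is not to scale and each panel has its own vertical scale. NOG2, UTP9 and UTP22 are lowest in WT at 20 min among the times shared by the strains, and at 20 min NOP56 and NOG1 are lowest in the PDR1 deletion.

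The steadiness of the WT course was tested with limma as a slope over its 6 arrays in 53 factors. On log2 time 0 were called, with 24 (45.3%) at an unadjusted p under 0.05 against 20.7% of all features, where 0.0191% of all features were called down and 0.0762% up. With the WT array at 30 s left out 3 were called down, where 0.303% of all features were called down and 0.815% up. On linear minutes 24 of the 53 fell with time and 0 rose, where 6.52% of all features were called down and 6.1% up. The steepest were NSR1, at -0.064 ± 0.011 per min (SE; adjusted p = 0.0123), YTM1, at -0.057 ± 0.0081 (adjusted p = 0.00725), and NOP56, at -0.042 ± 0.0049 (adjusted p = 0.00537). All 5 shared factors, 10 of 25 large subunit, 7 of 20 small subunit and 2 of 3 snoRNP factors were among the 24. Linear minutes weight the 40 min array most. Without it 2 of the 53 were called down, where 1.38% of all features were called down and 2.45% up.

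In the PDR1 deletion the factors as a group stayed near 0, but NOP56 and NOG1 fell and NIP7 rose. These are 3 of the 46 tested over the 4 times, where 2.71% of all features were called down and 2.8% up, and the median was -0.01 in the factors and in all features. NOP56 read -0.29, -0.05, -0.08, 0.02 and -0.30 in the YAP1 deletion, -0.07, -0.54, -0.48, -0.93 and -1.37 in the PDR1 deletion and -0.02, -0.06, -0.26, -0.14, -0.70 and -1.69 in WT. Its response in the PDR1 deletion was -0.83 ± 0.088 (adjusted p = 0.000895) over the 4 times and -1.15 ± 0.10 (adjusted p = 4.54e-05) at 10 and 20 min. From 2 min on every PDR1 deletion value of NOP56 was lower than the WT and YAP1 deletion values of the same time.

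NOG1, a GTPase that travels with the large subunit precursor into the cytoplasm, read -0.11, 0.10, -0.27, -0.02 and -0.44 in the YAP1 deletion, 0.12, -0.71, -0.26, -1.06 and -1.14 in the PDR1 deletion and -0.16, -0.04, -0.05, -0.26, -0.70 and -0.84 in WT. Its response in the PDR1 deletion was -0.79 ± 0.10 (adjusted p = 0.00154) over the 4 times and -1.10 ± 0.14 (adjusted p = 0.000628) at 10 and 20 min. At 2, 10 and 20 min its PDR1 deletion value was below those of the other strains, and at 4 min it lay between them. NIP7, a factor of 27S precursor processing, read 0.08, -0.02, 0.28, 0.93 and -0.34 in the YAP1 deletion, 0.10, 0.25, 0.31, 1.01 and 0.21 in the PDR1 deletion and 0.14, 0.23, 0.44, 0.63, 0.03 and 0.62 in WT. It rose by 0.44 ± 0.088 (adjusted p = 0.0154) in the PDR1 deletion over the 4 times and by 0.61 ± 0.12 (adjusted p = 0.0177) at 10 and 20 min. All 3 strains had their highest shared value of NIP7 at 10 min.

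The calls in the PDR1 deletion at 10 and 20 min were these 3 genes, where 1.62% of all features were called down and 2.08% up. With its array at 10 min left out 1 was called, where 1.35% of all features were called down and 1.47% up. On the PDR1 deletion array at 20 min 2 factors (NOG1 and NOP56) were at least 2-fold lower, where 0.771% of all features were, and 1 (NOP15) at least 2-fold higher, where 1.35% were.

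In the YAP1 deletion limma called 0 of the 46 factors over the 4 times, with 5 at an unadjusted p under 0.05, where 0% of all features were called down and 0.116% up. The median was -0.11 in the factors and -0.02 in all features. For 10 and 20 min it again called 0, with 12 at an unadjusted p under 0.05, where 0.0463% of all features were called down and 0.139% up, and the medians were -0.18 and -0.01. No factor was 2-fold lower or higher on the array at 20 min, where 0.524% of all features were lower and 0.491% higher. When the 30 s array of each strain was subtracted, 12 of 43 factors were called down and 3 up over the 4 times in the YAP1 deletion, where 14.2% of all features were called down and 15.6% up. That 30 s array has the highest correlation of neighbouring probes, 0.46, whose part in this count was not tested.

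Set against WT on the 20 min arrays, factors were higher in both deletions. In the YAP1 deletion 43 of 59 factors (72.9%) stood above their WT value, against 55.4% of all features, with medians of -0.25 in the deletion and -0.37 in WT. In the PDR1 deletion 44 of the 52 measured on both arrays (84.6%) did, against 52.4% of all features, with medians over these 52 of 0.05 in the deletion and -0.36 in WT. A gap of more than 0.3 upward was seen in 15 factors (25.4%, against 16.6% of all features) in the YAP1 deletion and in 31 (59.6%, against 25.9%) in the PDR1 deletion. Between the deletions 41 of 52 factors (78.8%) were lower in the YAP1 deletion than in the PDR1 deletion, against 49.6% of all features. Each of these counts sets 1 array against 1 array, and genes are not replicates. The 20 min arrays also differed in spread, with an SD over all probes of 0.302 in the YAP1 deletion, 0.412 in the PDR1 deletion and 0.535 in WT. On a narrower array values below 0 tend to lie nearer to 0. These counts were not repeated on arrays scaled to a common spread, so the part of the spread in them was not tested.

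Gene by gene, the strain differences seldom passed the test. For the YAP1 deletion minus WT limma called 0 of 46 factors over the 4 times, with 3 at an unadjusted p under 0.05, where 0.139% of all features were called down and 0% up. Late it called 0, with 4 unadjusted, where 1.27% of all features were called down and 0.208% up. The lowest adjusted p was that of MAK5, a helicase gene, at 0.60 ± 0.15 (SE; 95% interval 0.27 to 0.92; adjusted p = 0.097), and NOG2 differed by 0.60 ± 0.22 (95% interval 0.12 to 1.08; adjusted p = 0.339). Both intervals reach differences of the size of the WT responses of these genes.

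For the PDR1 deletion minus WT limma called 0 of 46 factors over the 4 times, with 11 at an unadjusted p under 0.05, where 0% of all features were called in either direction. Late, at 10 and 20 min, it called 0, with 14 (30.4%) unadjusted against 17.6% of all features, where 0.185% of all features were called down and 0.139% up. The median difference over the 46 was 0.22, against 0.02 over all features. NOP56 went the other way from the group, at -0.73 ± 0.15 (95% interval -1.05 to -0.41; adjusted p = 0.0651), as did NOG1, at -0.62 ± 0.20 (adjusted p = 0.169). UTP9 was higher in the PDR1 deletion by 0.87 ± 0.22 (95% interval 0.38 to 1.37; adjusted p = 0.12) and NOG2 by 0.78 ± 0.22 (95% interval 0.30 to 1.25; adjusted p = 0.145), which limma did not call.

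The difference between the deletions was called for NOP56 alone among the 46. It was higher in the YAP1 deletion than in the PDR1 deletion by 0.73 ± 0.12 (adjusted p = 0.0404) over the 4 times, where 0.116% of all features were called down and 0.254% up. At 10 and 20 min the difference was 1.01 ± 0.15 (95% interval 0.69 to 1.33; adjusted p = 0.00474), where 0.833% of all features were called down and 0.301% up. NOG1 differed by 0.87 ± 0.20 at 10 and 20 min and was not called (adjusted p = 0.0668). The difference of NOP56 at 10 and 20 min was not called without the 20 min array of the YAP1 deletion (adjusted p = 0.136) or of the PDR1 deletion (adjusted p = 0.0918). Over the 4 times the call was lost without any 1 of 9 of the 12 arrays, with adjusted p up to 0.175.

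**Figure D4:**
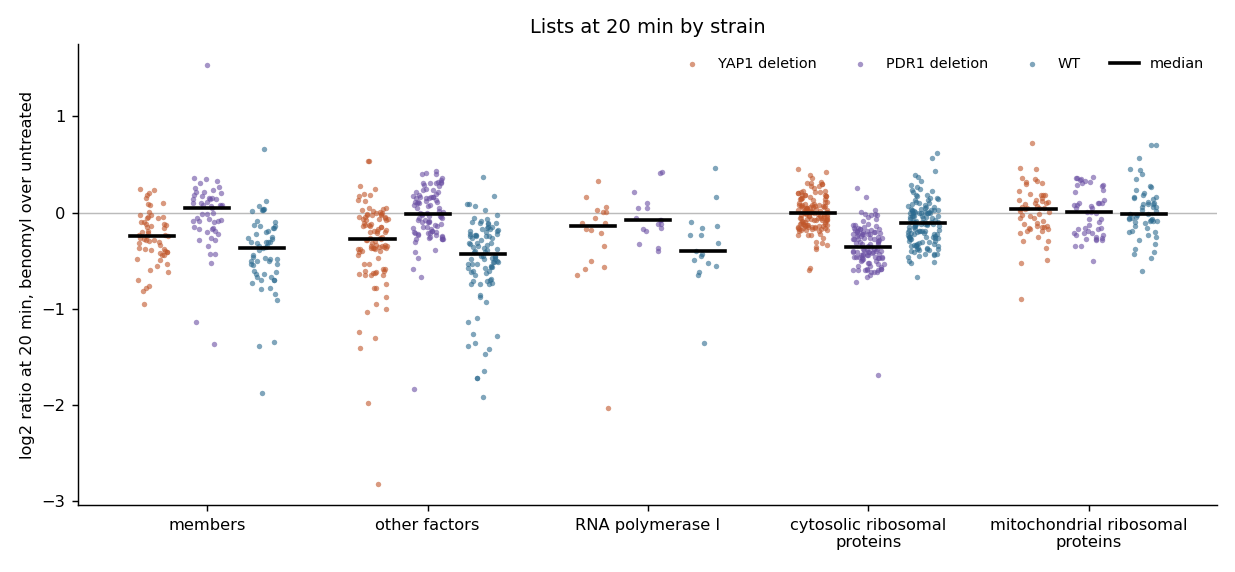
Log2 ratio (benomyl over untreated, vertical axis) at 20 min of the listed factors, other biogenesis factors, RNA polymerase I genes and cytosolic and mitochondrial ribosomal protein genes, each in the YAP1 deletion, the PDR1 deletion and WT. Points are genes and black lines medians; the factors have medians of -0.25, 0.04 and -0.37 in these strains, and the cytosolic ribosomal proteins -0.01, -0.36 and -0.11.

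At 20 min cytosolic ribosomal protein genes stood above WT in the YAP1 deletion, as the factors did. In the PDR1 deletion they stood below WT at that time, where the factors stood above it. At 10 min 86% of these genes (92 of 107) were instead lower in the YAP1 deletion than in WT. Of the factors 35.3% were lower there, and of all features 48.6%. At 20 min the cytosolic ribosomal protein genes had a median of -0.01 in the YAP1 deletion, -0.36 in the PDR1 deletion and -0.11 in WT, and 75.4% of them (101 of 134) were higher in the YAP1 deletion than in WT, against 72.9% of the factors and 55.4% of all features. In the PDR1 deletion 82% (91 of 111) were lower than in WT, against 15.4% of the factors and 47.5% of all features. Over the 4 times 5 of the 87 tested fell in the PDR1 deletion (RPL15A, RPL31B, RPL16A, RPL11A and RPS17A), where 2.71% of all features were called down. At 10 and 20 min 1 of the 87 fell in WT, where 4.58% of all features were called down, RPS27A by 0.64 ± 0.14 (adjusted p = 0.0159). The median of mitochondrial ribosomal protein genes at 20 min was 0.04 in the YAP1 deletion, 0.01 in the PDR1 deletion and -0.02 in WT. Of 44 tested, MRPL1 and MRPL36 rose in the PDR1 deletion over the 4 times, where 2.8% of all features were called up, by 0.31 ± 0.075 (adjusted p = 0.035) and 0.28 ± 0.069 (adjusted p = 0.0394).

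The other lists had few calls. Late in WT, at 10 and 20 min, where 4.58% of all features were called down and 4.49% up, 4 of 32 other large subunit genes fell, MAK21 by 0.55 ± 0.11 (adjusted p = 0.0112), ALB1 by 0.55 ± 0.12 (adjusted p = 0.0164), NOC2 by 0.61 ± 0.14 (adjusted p = 0.024) and NOC3 by 0.41 ± 0.10 (adjusted p = 0.0366). MAK21, NOC2 and NOC3 encode the Noc proteins that escort the large subunit precursor, and Alb1 works in its export. Of 34 other small subunit genes 1 fell, NOB1, which encodes the nuclease that makes the final cut of the 18S RNA, a share below that of all features, by 0.91 ± 0.19 (adjusted p = 0.0165). Of 10 regulators 2 fell, SCH9 by 0.77 ± 0.13 (adjusted p = 0.00532) and IFH1, a coactivator of ribosomal protein genes, by 0.56 ± 0.12 (adjusted p = 0.0219). None of 13 RNA polymerase I genes and none of 3 other snoRNP genes was called by limma, with 6 and 1 at an unadjusted p under 0.05.

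Over all 4 times 1 of the 34 fell in WT, where 1.55% of all features were called down, LCP5, by 0.29 ± 0.072 (adjusted p = 0.0445). In the PDR1 deletion, where 2.71% of all features were called down, 2 of the 34 fell over the 4 times, TSR2, a chaperone of a small subunit protein, by 0.78 ± 0.13 (adjusted p = 0.00482) and BUD23, a methyltransferase of the 18S RNA, by 0.55 ± 0.097 (adjusted p = 0.00755), and so did RAP1 by 0.30 ± 0.072 (adjusted p = 0.035). TSR2 read -1.84 in the PDR1 deletion at 20 min, against -0.61 in WT. BUD23 was higher in the YAP1 deletion than in the PDR1 deletion by 0.74 ± 0.14 (adjusted p = 0.0478), where 0.254% of all features were called up.

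Position on the chromosomes was set beside these values, because some biogenesis genes lie side by side. By gene order in RefSeq 9 factors had a neighbour among the other pathway genes, and no 2 listed factors were neighbours. Of the 8 pairs with both values in WT at 40 min, both genes were at least 2-fold lower in 2, DBP8 (-1.25) with the export adaptor gene NMD3 (-1.05) and DBP2 (-1.70) with RPC19 (-1.18). UTP9 at -0.25 lay next to RIX1 at -1.23, and RRP15 at 0.29 next to NOC4 at -1.03, so neighbours also differed.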

How the data were processed

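The deposited table holds, per the labels, 1 log ratio per probe and array for channel 1 (a strain with benomyl) and channel 2 (the same strain without). The values were taken as log2 and used as the authors deposited them, each array centred on a mean near 0. The normalisation, background correction, spot filter and dyes are not given in the sources used here. The 6338 probes, 5628 of them named, gave 6321 features after probes of 1 gene were averaged; symbols were updated through RefSeq gene identifiers, and 5 named probes had no entry there. Depth per spot is unknown, so precision rests on the number of arrays.

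Features with at least 3 of 4 values per strain (4324), or 5 of 6 WT values for slopes (5248), were tested with limma 3.58.1 in R 4.3.3 (lmFit, eBayes, two-sided), adjusted over all of them by Benjamini-Hochberg at 0.05. A gene with all 12 values left 6 residual degrees of freedom, or 4 with separate late terms, and the scripts were tested on simulated data. SE and 95% intervals are moderated. Nothing says that the arrays came from separate cultures. The factors and gene lists were chosen with earlier results of these data known. Named were all factors, with every array for those called and for the extremes of each class in WT at 40 min, and, of the other lists, the 3 lowest, the highest and those called. Promoter sequences were not used here, so a planned motif description was not made.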

Additional observations from a re-analysis of the deposited data

Results flagged for a closer look

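NOP56, the box C/D snoRNP scaffold, differed between the deletion strains by a test of the difference itself. It was higher in the YAP1 deletion than in the PDR1 deletion by 0.73 log2 over the 4 shared times (limma, adjusted p = 0.0404) and by 1.01 at 10 and 20 min (limma, adjusted p = 0.00474). All 4 PDR1 deletion arrays from 2 min on lay below the YAP1 deletion array of the same time.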

How the results depend on the processing

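The direction of each factor called over the 4 times or at 10 and 20 min held under the alternatives run for it, and the calls themselves moved with the processing; factors called by the slope were not followed singly. In the PDR1 deletion over the 4 times NOP56 was called under 22 of 22 alternatives (adjusted p 0.000329 to 0.0487), NOG1 under 21 and NIP7 under 16. In WT over the 4 times NSA2 was called under 16 of 23 alternatives and NOG2 under 7. Of the WT calls at 10 and 20 min, NOG2 was kept under 22 of 23 alternatives, UTP22 under 19, UTP9 under 17 of 22, and the other 6 under 9 (RRP12) to 13 of 23. Leaving out 1 array at a time, the number of factors called, down or up, ranged from 0 to 4 for the WT response (at 4, all features 2.49% down, 3.45% up). It ranged from 2 to 3 for the PDR1 deletion, 0 to 1 for the YAP1 deletion minus the PDR1 deletion, and 0 to 3 for the slope on log2 time. At 10 and 20 min it ranged from 0 to 13 for WT (at 13, all features 7.63% down, 6.14% up) and 1 to 3 for the PDR1 deletion. At those times it ranged from 0 to 1 for the YAP1 deletion minus WT, 0 to 2 for the PDR1 deletion minus WT and 0 to 2 for the difference between the deletions. With the 30 s array subtracted, the error of 1 array enters all 4 times of a strain but not their spread. Of 43 factors 15 were then called for the YAP1 deletion (0 without subtraction), against 14.2% of all features down and 15.6% up. For the PDR1 deletion 10 were called (481 of 3654 features down, 382 up) and for WT 5 (8.02% down, 5.99% up). For the YAP1 deletion minus WT 4 were called (4.3% down, 7.77% up). The count was 6 for the PDR1 deletion minus WT (4.68% down, 5.94% up) and 14 between the deletions (14% down, 17.3% up). At 10 and 20 min the subtraction gave 10 for the YAP1 deletion (all features 8.43% down, 10.1% up) and 8 for the PDR1 deletion (9.14% down, 7.53% up). It gave 1 for the YAP1 deletion minus WT (1.89% down, 1.75% up) and 5 for the PDR1 deletion minus WT (3.15% down, 3.69% up). Between the deletions it gave 10 (9.14% down, 11.6% up). With the 30 s arrays included, 15 were called in WT at 10 and 20 min (all features 7.2% down, 6.07% up). For the YAP1 deletion minus WT 1 was called at those times (1.62% down, 0.445% up). Between the deletions 0 were called with these arrays over all times (0% in both directions). For the WT response 0 were called down and 1 up with the trend along probe order removed (0.809% down, 3.05% up). With all 12 values required 3 of 38 were called down and 1 up (2.65% down, 3.81% up). The count was 1, called down, without the time block (0.254% down, 0.856% up) and 0 with only the WT arrays (0% in both directions). It was 0 without the 3 arrays from 2 min on whose neighbouring probes correlate most (0% down, 0.0631% up). Without the DeltaPDR1 arrays it was 1 of 53 (1.46% down, 2.94% up), and both fits were chosen after seeing the data. At 10 and 20 min in WT the count was 5 with array medians subtracted (3.19% down, 4.97% up) and 1 with a common spread (0.994% down, 2.22% up). It was 1 with only the WT arrays (1.03% down, 2.74% up) and 4 without the same 3 arrays (3.02% down, 3.69% up). Without the DeltaPDR1 arrays it was 15 of 53 (6.76% down, 6.61% up). With only its own arrays the PDR1 deletion kept 1 call over the 4 times (0.427% down, 0.325% up). Between the deletions 0 were called without the time block or without the 3 arrays (0% in both directions), or with only their arrays (0.267% down, 0.111% up). At 10 and 20 min 2 were called between them with the trend removed (0.809% down, 0.254% up) and 2 with all 12 values required (1.43% down, 0.664% up). For the PDR1 deletion minus WT 1 was called at those times with the trend removed (0.301% down, 0.116% up). The slope on linear minutes gave 24 calls (6.52% down, 6.1% up) and 2 with WT at 40 min left out (1.38% down, 2.45% up). It gave 26 with WT at 20 min left out (5.84% down, 6.21% up) and 0 with a common spread (0% in both directions). The last 3 fits were chosen after seeing the data. At 40 min in WT a common spread gave a median of -0.376 and 3 factors at least 2-fold lower, and the small minus large subunit gap was -0.199 with a common spread and -0.123 with the 30 s array subtracted. Causes other than the stated constructions were not tested. The fit of 1 strain alone at 10 and 20 min had no time terms and left at most 2 residual degrees of freedom. The labels give no replicate numbers to pair arrays by; the models pair the strains by time, and the fit without the time block is the unpaired one. Dye effects cannot be told apart from the drug's, since no dye swap is known, and the 40 min array has no repeat.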

Other observations

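At 30 s, before any factor reached a 2-fold change, 44.4% of the factors lay below 0 in the YAP1 deletion (24 of 54), 58.3% in the PDR1 deletion (28 of 48) and 69.8% in WT (37 of 53), against 45.6%, 51.5% and 47.9% of all features on the same arrays. The WT values at 30 s ran from -0.51 (DBP2) to 0.29 (NOP4). RNA polymerase I genes at 20 min had medians of -0.14 in the YAP1 deletion, -0.08 in the PDR1 deletion and -0.40 in WT, with RPA135 at -0.59, 0.04 and -0.53 in these strains. SCH9, the kinase gene of nutrient signalling, stood at -0.92 in the YAP1 deletion, -0.04 in the PDR1 deletion and -0.99 in WT at 20 min.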
